A study of Homo sapiens with 21 samples.

Results

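The NRF2 antioxidant genes are a group of 10 genes of the cellular defence against oxidants. NFE2L2 encodes the transcription factor NRF2, KEAP1 encodes its inhibitor, and NQO1, GCLC, GCLM, TXNRD1, SRXN1, HMOX1, SLC7A11 and OSGIN1 are genes that NRF2 is known to drive. The members were chosen by symbol, and they were selected on a value of these data: GCLC is lower in FADU cells that overexpress METTL4. The 10 genes were looked up among 20970 genes that have a row in at least 1 of 4 tables of expression values. All 10 were found in both knockdown tables, and 9 of them, all but SRXN1, in the overexpression table and in the table of mutant cells.

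The libraries came from 2 established human cancer lines. FADU was grown from a squamous cancer of the head and neck, and BFTC909 from a transitional cancer of the renal pelvis. The knockdown tables hold, for each line, 2 libraries of cells with Scramble-si at 18% O2 (normoxia), 2 of cells with Scramble-si at 1% O2 (hypoxia) and 2 of cells with METTL4-si at 1% O2, each for 18 h. The labels call the treatment an siRNA, and the methods of the study describe lentiviral hairpins with antibiotic selection. METTL4 is an adenine methyltransferase, and RP11-390F4.3 is a long noncoding RNA. The overexpression table holds 2 libraries each of FADU cells with a control vector, with METTL4 and with RP11-390F4.3, all at 18% O2, which the methods describe as stable clones made by plasmid transfection. The fourth table holds, at 1% O2, 1 library of unedited FADU cells (CRISPR control) and 1 library from each of 2 clones grown from single cells, in which the DPPW catalytic motif of METTL4 had been changed by prime editing. Nothing in the labels says that the libraries of a group came from separate cultures, so the p-values measure the spread between these libraries, which may be technical.

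NRF2 is made continuously and, in unstressed cells, held by KEAP1, which brings it to a CUL3 ubiquitin ligase for destruction. Oxidants and electrophiles modify cysteines of KEAP1, NRF2 then accumulates, pairs with a small MAF protein and binds antioxidant response elements near its target genes. BACH1 competes for the same elements and represses HMOX1 in particular. The mRNA of NFE2L2 is therefore a poor guide to the activity of the protein, which was not measured here. Mutations that stabilize NRF2 occur in squamous cancers of the head and neck.

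All values are TMM-normalized CPM (read counts scaled to the size of the library), and a fold change is on the scale of log2(value + 1). Each library of the replicated tables had from 19038795 to 25410656 reads on genes. TXNRD1 rested on 10254 to 25272 reads in a library and GCLC on 675 to 3871. HMOX1 rested on 144 to 271 in the FADU knockdown libraries and on 106 to 343 in the overexpression libraries, where OSGIN1 rested on 48 to 76. SRXN1 rested on 4 to 38, so that SRXN1 was measured least precisely. In the GRCh37 annotation used here NFE2L2 shares 2037 of 14975 exon bases with other genes of its strand, GCLC 529 of 8618 and OSGIN1 457 of 5558, so some of their reads could be split or dropped in counting. NQO1, GCLC and SLC7A11 also overlap noncoding genes on the opposite strand, and the strand setting of the counting is not given. In the METTL4 overexpression libraries METTL4 had values of 158 and 139, against 35.4 and 32.7 in control cells. RP11-390F4.3 had values of 23.9 and 25.1 in the cells made to overexpress it, 12.9 and 13.4 in control cells and 21.8 and 21.7 with METTL4. In FADU the METTL4-si libraries had METTL4 values of 24.2 and 27.1, no lower than the 26.6 and 25.3 of the hypoxic control libraries. In BFTC909 it was 14.4 and 12.2 against 19.0 and 15.6, a log2 fold change of -0.36 that did not pass the test (limma, adjusted p = 0.0717). CA9, a marker of the hypoxia response, rose from 2.33 and 2.55 to 31.0 and 37.8 in hypoxic FADU cells and fell to 1.87 and 2.22 with METTL4-si. It was also higher in the overexpression cells, which were kept at 18% O2. There CA9 was 9.39 and 9.15 with METTL4 and 13.6 and 13.2 with RP11-390F4.3, against 0.906 and 0.744 in control cells. The part of such a response in the values of the members was not tested.

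The markers of squamous epithelium were present in FADU, with all 6 at a value of at least 1 in every library. Their sum was 3112 and 3417 in hypoxic cells and 1918 and 2138 with METTL4-si. The urothelial markers were nearly absent from BFTC909: 1 of 6, GATA3, had a row, and its value was 0.573 to 0.964 in 5 of the 6 libraries and 128 in METTL4-si replicate 2. Markers of luminal breast cells summed to 88.8 in FADU normoxia replicate 1 and 448 in FADU METTL4-si replicate 1, against 4.2 to 8.9 in the other FADU knockdown libraries. In the overexpression table the same sum was 37.4 in RP11-390F4.3 replicate 2 and 4.08 to 6.44 in the others. Counts of members are given with and without the 3 knockdown libraries named here. No share over all genes was taken from the fits without them, so those counts are not set against one. In the FADU fit without its 2 libraries, the hypoxic pair alone sets the spread, and the single normoxic and METTL4-si libraries are assumed to vary like it.

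TXNRD1, the cytosolic thioredoxin reductase, and NQO1, a quinone reductase, had the highest levels per length of transcript in both lines. In normoxic cells TXNRD1 had 199.9 CPM per kb in FADU and 277 in BFTC909, and NQO1 had 121 and 204. In FADU the order then ran NFE2L2 (53.0), GCLC (38.9), GCLM (30.5), SLC7A11 (22.4), KEAP1 (19.6), HMOX1 (7.04), OSGIN1 (1.87) and SRXN1 (0.261). In BFTC909 it ran HMOX1 (120.0), NFE2L2 (39.5), GCLM (36.9), KEAP1 (22.7), SLC7A11 (14.0), GCLC (14.0), OSGIN1 (11.7) and SRXN1 (0.569), all in CPM per kb. HMOX1, the inducible haem oxygenase, was the third in this order in BFTC909 and stood below KEAP1 in FADU. The tables of the 2 lines were normalized separately, so levels were not tested between them.

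Antioxidant response elements have the core TGACNNNGC, and the windows that hold it are shown because 2 of these genes, GCLM and TXNRD1, fell together in hypoxic BFTC909 cells and with METTL4-si in FADU. HMOX1 and SLC7A11, which were lower together in both overexpression comparisons, had no window. RefSeq promoter windows (GRCh38.p14, from 250 bases before a transcription start to 50 after it) were at hand for 8 of the 10 members, with 11 windows. A match on either strand lay in 4 of these 11 windows, in GCLM, TXNRD1 and KEAP1, and in 13.3% of 35116 windows of all genes. The windows of NFE2L2, GCLC, NQO1, OSGIN1 and SRXN1 held no match. Elements outside the windows were not searched for, so a window without a match does not mark a gene without an element. Whether a match goes with a fall was not tested. The members that fell in hypoxic BFTC909 cells were GCLM, TXNRD1, KEAP1, GCLC and OSGIN1. With METTL4-si in FADU it was GCLM, TXNRD1, NQO1 and NFE2L2. Each line gives the 60 bases around a match in the direction of the gene, with the matched letters in capitals. The GCLM match begins 34 bases before the start (chr1:93909430-93909489, minus strand). The TXNRD1 matches begin 99 bases before 1 start (chr12:104215655-104215714) and 102 bases before another (chr12:104286905-104286964, both plus strand). The KEAP1 match begins 31 bases before 1 of 2 starts (chr19:10502768-10502827, minus strand), and the stretch also holds the other match of that window in lower case, as the first TXNRD1 window holds a further match not shown. A match is a description of letters and not a tested site.
GCLM: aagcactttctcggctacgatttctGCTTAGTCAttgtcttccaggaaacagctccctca
TXNRD1, first start: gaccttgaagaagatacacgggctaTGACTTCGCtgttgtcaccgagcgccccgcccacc
TXNRD1, second start: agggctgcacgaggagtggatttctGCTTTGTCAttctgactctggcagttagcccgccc
KEAP1: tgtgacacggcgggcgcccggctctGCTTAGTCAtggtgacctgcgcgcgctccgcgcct

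The first comparison was that of METTL4 overexpression with control vector in FADU cells, the contrast that selected GCLC. Because the rule used it, its values are a description and were not tested. GCLC encodes the catalytic subunit of glutamate-cysteine ligase, the rate-limiting enzyme of glutathione synthesis (chr6:53362139-53481768 of GRCh37, minus strand). It had values of 173 and 180.1 in control cells and 91.7 and 96.8 with METTL4, a log2 fold change of -0.90 ± 0.05 (SE, n = 2 per group). The METTL4 libraries lay well below both control libraries.

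The other members were not all lower, and among those that were, the size differed. HMOX1 (chr22:35776354-35790207, plus strand), which breaks down haem, had values of 14.6 and 16.0 in control cells and 7.41 and 4.80 with METTL4, a log2 fold change of -1.22 ± 0.14. SLC7A11 (chr4:139085251-139163503, minus strand), the cystine importer that supplies glutathione synthesis, had values of 262 and 226 in control cells and 164 and 164 with METTL4, a log2 fold change of -0.56 ± 0.06. These 3 genes, out of 9 members, were at least 1.3-fold lower without overlap of the libraries, a rule met downward by 11.2% of 15644 genes. None of the 9 was as much higher, against 8.37% of all genes. Nothing about the members is read from these shares, since the contrast chose the group.

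The other 6 members differed less. NFE2L2 was 151 and 140.4 in control cells and 143 and 139.8 with METTL4, and NQO1 was 354 and 390.2 against 362 and 369; in both genes the groups overlapped. KEAP1 was 43.2 and 45.6 against 45.9 and 46.1. GCLM, the modifier subunit that partners GCLC, was 179.9 and 154 in control cells and 147 and 139.6 with METTL4, a log2 fold change of -0.22, and TXNRD1 was 825 and 861 against 727 and 745, a log2 fold change of -0.20. OSGIN1, an oxidative stress-induced growth inhibitor, was 3.24 and 3.54 against 2.73 and 2.18, a log2 fold change of -0.35. In GCLM, TXNRD1 and OSGIN1 both METTL4 libraries lay below both control libraries, by less than 1.3-fold on the scale of log2(value + 1). Without the added 1, the mean of OSGIN1 was 1.38-fold lower.

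RP11-390F4.3 overexpression was compared with the same control libraries, so the values of both comparisons stand side by side and their likeness is not a result. Of the 8 members tested here, 3 fell and 0 rose at 1.3-fold or more with an adjusted p under 0.05 (limma), against 12.5% of 15644 genes that fell and 16.5% that rose. By edgeR on whole reads, and with an unadjusted p under 0.05, the counts were also 3 lower and 0 higher. Without a fold limit 1 member, TXNRD1, passed as higher.

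HMOX1 fell from 14.6 and 16.0 to 8.01 and 7.45 with RP11-390F4.3, a log2 fold change of -0.90 ± 0.14 (SE, n = 2 per group; limma, adjusted p = 0.00016). SLC7A11 fell from 262 and 226 to 183 and 171, a log2 fold change of -0.46 ± 0.06 (adjusted p = 3.39e-05 by limma). GCLM fell from 179.9 and 154 to 134 and 119, a log2 fold change of -0.40 ± 0.07 (adjusted p = 0.00037 by limma). In all 3 genes both RP11-390F4.3 libraries lay below both control libraries. Without control replicate 1 the calls of GCLM (log2 fold change -0.28) and SLC7A11 (-0.35) were lost, and without RP11-390F4.3 replicate 2 that of GCLM (-0.31). The call of HMOX1 held in each of these fits.

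GCLC had values of 141 and 133 with RP11-390F4.3, a log2 fold change of -0.36 that was not tested because the control libraries had served to select the gene. These values lie between those of the control cells and of the METTL4 cells, without overlap. TXNRD1 was 934 and 897 against 825 and 861, a log2 fold change of 0.12, and so lay on the other side of control from its METTL4 values. NFE2L2 (-0.12), KEAP1 (-0.12), NQO1 (-0.10) and OSGIN1 (-0.20) were within 1.3-fold of control.

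**Figure D1:**
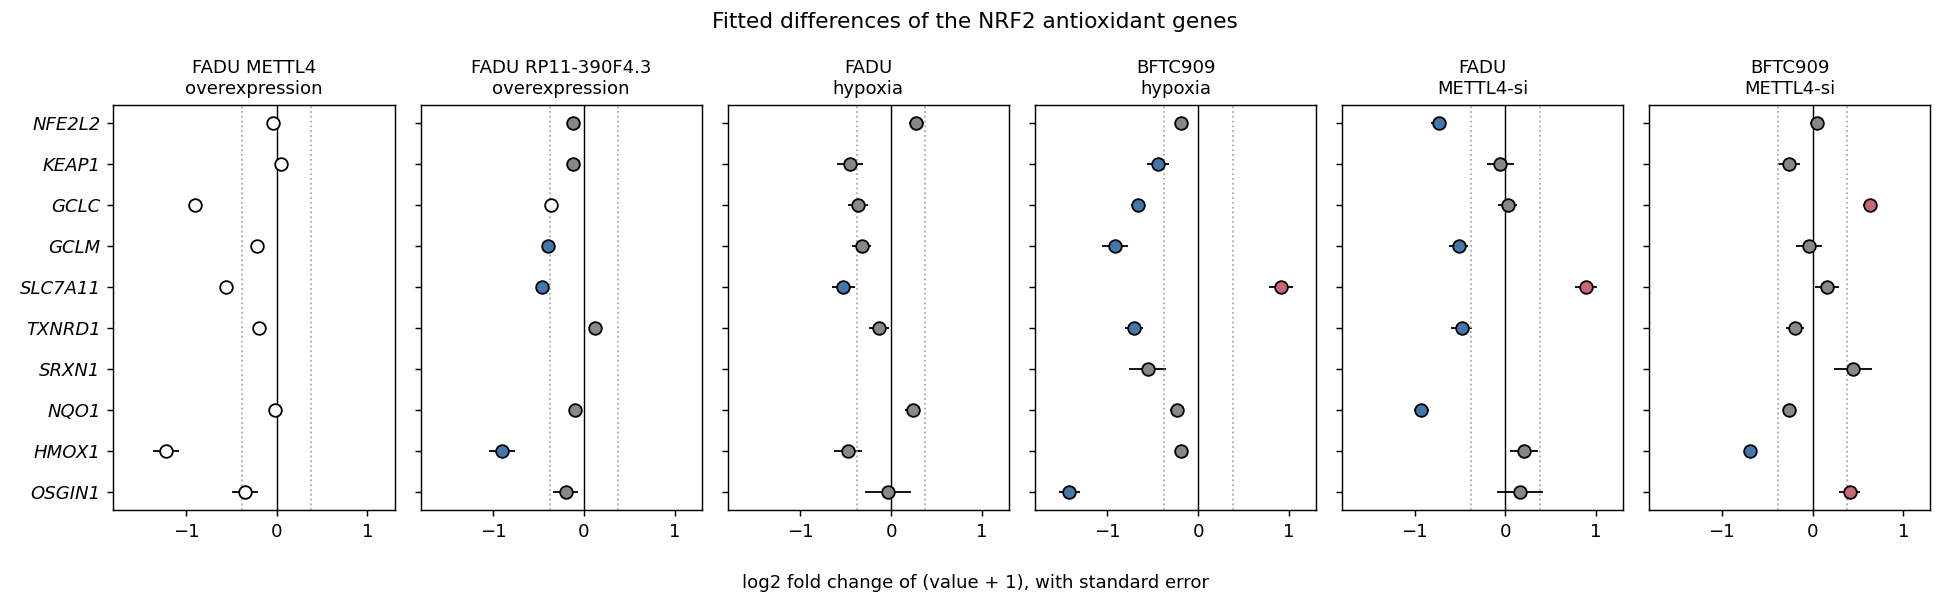
Fitted log2 fold changes of (value + 1) with standard errors for each member in 6 comparisons (dotted lines at 1.3-fold; blue, fell; red, rose; grey, did not pass the test; white, not tested because the contrast or its control libraries selected GCLC). No comparison moves the whole group: SLC7A11 fell in hypoxic FADU cells and rose in hypoxic BFTC909 cells, and NFE2L2 and NQO1 fell with METTL4-si in FADU.

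Hypoxia was compared with normoxia in cells with Scramble-si of each line. In BFTC909 the group was lower on balance: 5 of 10 members fell and 1 rose, against 18.3% of 14869 genes that fell and 17.9% that rose. The median log2 fold change of the members was -0.50, beside -0.02 over all genes tested. In FADU 1 of 9 members tested fell and 0 rose, against 9.65% of 16324 genes that fell and 9.73% that rose, with a median of -0.32 beside -0.03. Marker sums moved with hypoxia in BFTC909. The fibroblast list, with 5 of 6 genes in the table, went from 1019.5 and 1114 to 4447 and 4652, and was 2481 and 2680 with METTL4-si. The luminal breast list, with only 2 of 7 genes in the table, went from 324 and 335 to 998 and 1019.7, and was 313 and 405 with METTL4-si. Whether these sums follow cell type or the response to hypoxia, and their part in the result, was not tested. By edgeR on whole reads the FADU counts were also 1 and 0, and with an unadjusted p under 0.05 they were 3 and 0. SRXN1 had values under 1 in every FADU library and was not tested there.

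Of the 5 members that fell in BFTC909, 3 were enzymes of glutathione synthesis and thioredoxin reduction. GCLM (chr1:94350755-94375012, minus strand) fell from 186 and 173 to 102 and 88.5, a log2 fold change of -0.92 ± 0.14 (adjusted p = 0.00199). GCLC fell from 53.8 and 52.0 to 33.6 and 32.2, a log2 fold change of -0.67 ± 0.07 (adjusted p = 0.000468). TXNRD1 (chr12:104609557-104744085, plus strand) fell from 1078 and 1060.1 to 653 and 656, a log2 fold change of -0.71 ± 0.10 (adjusted p = 0.00118). The hypoxic libraries of these 3 genes lay below both normoxic libraries and close to each other.

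OSGIN1 (chr16:83964916-83999937, plus strand) fell furthest, from 22.6 and 22.3 to 7.18 and 8.41, a log2 fold change of -1.42 ± 0.11 (adjusted p = 0.000127). KEAP1 (chr19:10596801-10614234, minus strand) fell from 57.6 and 58.7 to 41.8 and 43.0, a log2 fold change of -0.45 ± 0.12 (adjusted p = 0.0208), and lost its call when any of the 4 normoxic and hypoxic libraries was left out (log2 fold change -0.43 to -0.47) and with median-centred libraries (-0.37). NQO1 (chr16:69740899-69760571, minus strand) was 508 and 519.9 against 431 and 441, a log2 fold change of -0.24, and HMOX1 was 185 and 188 against 158 and 168, a log2 fold change of -0.19; both were within 1.3-fold. NFE2L2 (chr2:178083395-178257484, minus strand) was 96.4 and 96.6 against 87.0 and 82.4, a log2 fold change of -0.19 (adjusted p = 0.0634). SRXN1, which reactivates oxidized peroxiredoxins (chr20:627259-633844, minus strand), was 1.70 and 1.17 against 0.723 and 0.573. Its fold change did not pass the test (-0.56, adjusted p = 0.0589), passed it by edgeR on whole reads (-1.14), and rests on a gene that shares 2292 of its 2528 exon bases on the same strand with another protein-coding gene, ENSG00000270299.

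SLC7A11 was the 1 member that rose in hypoxic BFTC909 cells. It rose from 133 and 137 to 276 and 235, a log2 fold change of 0.91 ± 0.13 (adjusted p = 0.00154), with both hypoxic libraries above both normoxic ones. In FADU it fell from 206 and 226 to 145 and 155, a log2 fold change of -0.52 ± 0.12 (adjusted p = 0.0252). The FADU call was lost when any of the 4 libraries was left out (log2 fold change -0.46 to -0.59) and with median-centred libraries (-0.48). The difference between the lines was not tested.

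In hypoxic FADU cells other members came near the threshold without passing it. GCLC was 138 and 156 in normoxia and 108 and 121 in hypoxia, a log2 fold change of -0.36 (adjusted p = 0.0501). GCLM was 147 and 151 against 118 and 119, a log2 fold change of -0.32 (adjusted p = 0.0655). KEAP1 was 49.9 and 50.8 against 36.1 and 36.9 (-0.45, adjusted p = 0.0675), and HMOX1 was 11.3 and 10.6 against 6.47 and 8.85 (-0.48, adjusted p = 0.0666). In each of these 4 genes both hypoxic libraries lay below both normoxic ones.

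NFE2L2 was higher in hypoxic FADU cells, at 159 and 156 against 125 and 134, a log2 fold change of 0.28 (adjusted p = 0.0506), and NQO1 was 351 and 370.2 against 298 and 313, a log2 fold change of 0.24 (adjusted p = 0.084). TXNRD1 was 688 and 718 against 731 and 812 (-0.13), and OSGIN1 had overlapping groups (-0.03, adjusted p = 0.94). The count of members that fell was 3 without either METTL4-si library, and 4 without normoxia replicate 1 and METTL4-si replicate 1, the libraries with breast markers. Those 4 were SLC7A11, KEAP1, GCLC and HMOX1.

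METTL4-si was compared with Scramble-si, both in hypoxia. In FADU 4 of 9 members fell and 1 rose, against 15.3% of 16324 genes that fell and 12.5% that rose. NQO1 fell from 351 and 370.2 to 203 and 176, a log2 fold change of -0.93 ± 0.08 (limma, adjusted p = 0.00068). NFE2L2 fell from 159 and 156 to 88.1 and 100.7, a log2 fold change of -0.74 ± 0.08 (adjusted p = 0.00129). Both METTL4-si values of each gene lay below its normoxic values as well. METTL4 RNA itself was 24.2 and 27.1 in these libraries against 26.6 and 25.3, so the direction rests on the label of the libraries and not on a measured loss of METTL4 RNA.

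GCLM fell from 118 and 119 to 74.4 and 92.7, a log2 fold change of -0.51 ± 0.10 (adjusted p = 0.0107), and TXNRD1 from 688 and 718 to 453 and 558, a log2 fold change of -0.48 ± 0.11 (adjusted p = 0.0175). Both of these calls were lost without hypoxia replicate 1, hypoxia replicate 2 or METTL4-si replicate 1, with log2 fold changes of -0.36 to -0.52 for GCLM and -0.33 to -0.51 for TXNRD1. METTL4-si replicate 1 is the library with the highest breast markers, and the sum of squamous markers was lower in both METTL4-si libraries. The part of either in these values was not tested. Without it and normoxia replicate 1, 2 members fell, NQO1 and NFE2L2.

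SLC7A11 rose from 145 and 155 to 246 and 316, a log2 fold change of 0.89 ± 0.12 (adjusted p = 0.00266), and lay above its normoxic values of 206 and 226. GCLC was 107 and 126 with METTL4-si against 108 and 121, a log2 fold change of 0.03 (adjusted p = 0.874), and its groups overlapped. KEAP1 was 41.6 and 29.5 with METTL4-si, HMOX1 was 8.41 and 9.39 and OSGIN1 was 5.62 and 2.80, each with overlap of the hypoxic groups. OSGIN1 in METTL4-si replicate 2 lay below every other FADU knockdown library and in replicate 1 above every other one, and its log2 fold change was 0.16 with both and -0.24 without replicate 1.

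In BFTC909 with METTL4-si 2 of 10 members rose and 1 fell, against 13.2% of 14869 genes that rose and 11.7% that fell. GCLC rose from 33.6 and 32.2 to 53.2 and 49.9, a log2 fold change of 0.63 ± 0.07 (adjusted p = 0.000959), next to the normoxic 53.8 and 52.0. OSGIN1 rose from 7.18 and 8.41 to 10.0 and 11.3, a log2 fold change of 0.41 ± 0.11 (adjusted p = 0.0314), still below its normoxic values. That call was lost when either normoxic library, either hypoxic library or METTL4-si replicate 2 was left out (log2 fold change 0.31 to 0.51). HMOX1 fell from 158 and 168 to 104 and 98.0, a log2 fold change of -0.68 ± 0.07 (adjusted p = 0.000461), with both METTL4-si libraries below all others.

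The remaining members of BFTC909 did not reach both the fold and the p-value with METTL4-si. TXNRD1 was 633 and 516 against 653 and 656 (log2 fold change -0.20), GCLM was 108 and 78.8 against 102 and 88.5 (-0.04), and SLC7A11 was 326 and 247 against 276 and 235 (0.16). NFE2L2 was 91.2 and 84.0 against 87.0 and 82.4 (0.05), KEAP1 was 30.6 and 40.4 against 41.8 and 43.0 (-0.26), NQO1 was 389 and 344 against 431 and 441 (-0.25, adjusted p = 0.0363, within 1.3-fold), and SRXN1 was 0.891 and 1.66 against 0.723 and 0.573 (0.45). Without METTL4-si replicate 2, the library with GATA3 at 128, 1 member rose (GCLC) and 2 fell (HMOX1 and KEAP1, the latter at -0.46).

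In the mutant clones HMOX1 stood apart from the other members. It had a value of 16.5 in the CRISPR control library, 1.31 in clone 1 and 2.17 in clone 2, log2 ratios of -2.92 and -2.47, and only 8 of the 15719 genes of the table had a lower mean ratio. With 1 library per line there is no replicate check and no test, and each clone descends from a single cell. The control value of HMOX1 lay above the 6.47 and 8.85 of hypoxic FADU cells with Scramble-si, which were normalized separately. Every other member lay lower in the CRISPR control library than in those cells, as did METTL4 (12.5 against 26.6 and 25.3). In the control library 42.8% of the signal lay on rows that name no single gene. Its values are therefore not on the scale of those cells, and no lower level of the members is read from them. How far the ratios of HMOX1 rest on this control library was not tested. On the scale of log2(value + 1), HMOX1 was 1 of 9 members at least 1.3-fold lower in both clones, against 11.8% of all genes. On the same scale 0 were as much higher, against 8.94%. Without the added 1, OSGIN1 was also lower in both clones, by 1.82-fold and 1.39-fold.

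The other members were closer to control. NQO1 was 214 in control cells and 145 and 183 in the clones, OSGIN1 was 2.88 against 1.58 and 2.07, NFE2L2 was 78.1 against 63.9 and 60.2, and TXNRD1 was 399.9 against 327 and 331. GCLC was 65.6 against 62.2 and 53.4, and GCLM was 58.0 against 51.6 and 52.1. KEAP1 was 18.5 against 19.2 and 21.3. SLC7A11 was 106 against 131 and 83.4, with the clones on either side of control. The median of the mean log2 ratios was -0.28, beside 0.00 over all genes. METTL4 itself was 12.5 in control cells and 15.9 and 10.6 in the clones.

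The neighbouring genes of the pathway were counted from 7 lists, with 81 genes in all. In hypoxic FADU cells 3 of 69 tested rose and 12 fell, beside 9.73% and 9.65% of all genes. With METTL4-si in FADU 6 of 69 rose and 18 fell, beside 12.5% and 15.3%. List counts from the fits without the marker libraries are left out. Those fits leave a single library in a group, and no all-gene share stands beside them. In hypoxic BFTC909 cells 17 of 72 rose and 13 fell, beside 17.9% and 18.3%. With METTL4-si in BFTC909 22 of 72 rose and 6 fell, beside 13.2% and 11.7%. With RP11-390F4.3 17 of 69 rose and 10 fell, beside 16.5% and 12.5%. With METTL4, by fold and lack of overlap alone, 6 of 69 were higher and 21 lower, beside 8.37% and 11.2%. In both mutant clones 1 of 69 was higher and 19 were lower, beside 8.94% and 11.8%.

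Among the partners of NRF2, BACH1, the repressor of HMOX1, rose in hypoxic FADU cells (30.6 to 60.9 on average, log2 fold change 0.97, adjusted p = 0.000844) and fell with METTL4-si (60.9 to 25.9, -1.20, adjusted p = 0.000289). BACH1 rose with RP11-390F4.3 (31.5 to 68.5, 1.09, adjusted p = 3.02e-09), and was 43.5 with METTL4. MAFF, a small MAF partner of NRF2, rose with RP11-390F4.3 (log2 fold change 1.74, adjusted p = 1.84e-09), had a log2 fold change of 1.13 with METTL4, and fell in hypoxic BFTC909 cells (-1.48, adjusted p = 0.000149). NFE2L3, a relative of NRF2, fell in hypoxic BFTC909 cells (-1.55, adjusted p = 2.87e-05) and rose with METTL4-si (1.74, adjusted p = 2.69e-05).

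Of the enzymes that supply NADPH, which glutathione and thioredoxin reductases use, 5 of 6 were lower with METTL4 overexpression, beside 11.2% of all genes. They included IDH1 (193 to 66.6 on average, log2 fold change -1.52), ME1 (-0.77) and TKT (-0.59). In the mutant clones 4 of 6 were lower, beside 11.8% of all genes, among them IDH1 (-1.14) and ME1 (-0.57). 

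Of the detoxifying enzymes, 7 of 12 were lower with METTL4 overexpression, beside 11.2% of all genes, among them AKR1C1 (log2 fold change -1.64), EPHX1 (-0.69) and UGDH (-0.60), and 1 was higher. With METTL4-si in BFTC909 7 of 12 rose, beside 13.2% of all genes, led by AKR1C2 (1.83), AKR1C3 (1.58) and CES1 (1.54). In hypoxic BFTC909 cells 5 of 12 fell, beside 18.3% of all genes, among them AKR1C1 (-1.49) and AKR1C2 (-0.51), and 1 rose, CES1 (0.75). The AKR1C genes are close copies of each other, so reads may be split between them. Of the thioredoxin and peroxiredoxin genes, 4 of 9 fell with METTL4-si in FADU, beside 15.3% of all genes, among them PRDX3 (-0.93), PRDX1 (-0.91) and TXN (-0.77).

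Of the genes that use and move glutathione, 10 of 23 rose and 3 fell in hypoxic BFTC909 cells, beside 17.9% and 18.3% of all genes. In FADU with METTL4-si 4 of 21 rose and 4 fell, beside 12.5% and 15.3% of all genes. GPX2 (-1.49) and GPX1 (-1.22), both glutathione peroxidases, fell and ABCC3 (1.47), an export pump, rose. With METTL4 overexpression, by fold and lack of overlap alone, 7 of 21 were lower and 1, GPX1 (0.73), was higher, beside 11.2% and 8.37% of all genes. GPX1 rose with RP11-390F4.3 (0.68). The iron store FTH1 fell with METTL4-si in FADU (2414 to 1430.4 on average, log2 fold change -0.75, adjusted p = 0.00216), rose with METTL4-si in BFTC909 (5402 to 7088, 0.39, adjusted p = 0.0141) and rose with RP11-390F4.3 (2804 to 3868, 0.47, adjusted p = 3.21e-05), and was 2888 in the CRISPR control library against a mean of 1263 in the mutant clones.

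ATF4, the factor of the amino acid response that also acts on SLC7A11, was counted together with its targets as a list of 9. In hypoxic BFTC909 cells 9 rose, among them ASNS (log2 fold change 1.27) and VLDLR (2.37), and with METTL4-si 4 fell. In hypoxic FADU cells 1 rose and 2 fell, and with METTL4-si 3 fell. Without the marker libraries PSAT1 (log2 fold change -0.34) and ATF4 (-0.35), both among those 3, were within 1.3-fold. With RP11-390F4.3 5 rose and 2 fell, with METTL4 1 was higher, and in the mutant clones 2 were higher and 4 lower. The all-gene shares are those given for the same comparisons above. SLC7A11 itself rose in hypoxic BFTC909 cells and with METTL4-si in FADU, and fell in hypoxic FADU cells and with RP11-390F4.3. The part of ATF4 in these values was not tested.

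The knockdown comparisons were also fitted without the marker libraries, an alternative chosen after seeing the data. BACH1, NFE2L3, MAFF, GPX1, GPX2, ABCC3, FTH1, PRDX1, PRDX3, TXN, AKR1C1, AKR1C2, AKR1C3, CES1, ASNS and VLDLR kept the direction given here and a size of at least 1.3-fold. For hypoxic BFTC909 cells this is no check, since the library left out is in neither group and the fold changes are the same. The other fits leave single libraries in a group, so only size and direction are read from them.

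Across the 18 libraries of the 3 replicated tables, with each gene centred on its mean in each table, the members did not share 1 pattern. As a description of points that share libraries and depth, Pearson's r was 0.87 for GCLM with TXNRD1, 0.87 for NFE2L2 with NQO1 and 0.47 for GCLC with GCLM, while SLC7A11 had an r of -0.71 with NQO1 and -0.64 with TXNRD1. Among 10825 genes, those most like GCLC were PIR (0.93), PHIP (0.89) and GDE1 (0.88), those most like NQO1 were MORF4L1 (0.97), HMGN2 (0.96) and HDAC1 (0.95), and those most like HMOX1 were CHKA (0.84), ADIPOR2 (0.82) and C2orf49-DT (0.82).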

How the data were processed

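RNA-seq libraries were made with a ribosomal RNA depletion kit that marks strand and sequenced in pairs. For the tables, the authors used Trim Galore for trimming, HISAT2 for alignment to hg19, htseq-count for counting and edgeR for normalization. Versions, counting settings and the gene annotation are not given in the sources used here. The deposited value is a signal per gene, TMM-normalized CPM. In the 3 replicated tables all values came out as whole reads (tolerance 0.1), 19038795 to 25410656 per library. Among the mutant libraries 40.9% to 43.0% of the signal lay on rows that name no single gene, which were left out. The authors' own comparison tables (log2 fold change, mean expression, F statistic and unadjusted p-value) were not used. Symbols were matched from gene identifiers for 18887, 16721, 17763 and 15308 genes of the FADU, BFTC909, overexpression and mutant tables. Columns of the overexpression table that name neither control nor METTL4 were assigned to RP11-390F4.3 by elimination, and its gene was taken as the 1 (ENSG00000225489) located by a primer of the study. Levels per length use the Ensembl canonical transcript.

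The main test was limma 3.58.1 (R 4.3.3) with a mean-variance trend, on log2(value + 1). Genes reaching 1 in 2 or more libraries entered, with the 3 groups of a table in 1 fit, no covariate, and Benjamini-Hochberg adjustment over all genes tested in a comparison. A gene rose or fell at 1.3-fold or more with an adjusted p under 0.05. The contrast of METTL4 overexpression, and GCLC against its control libraries, were not tested because they selected GCLC. The fit was tested on simulated data, where 1.5-fold changes were found less often than 2-fold ones. Alternatives were pseudocounts of 0.1 and 5, other filters, 2 groups alone, median-centred libraries, edgeR 4.0.16 on whole reads, other call rules, a replicate block and each library left out.

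Every member was named in every table; of other lists, at most 3 genes per list and comparison with the largest fold change among those called and a mean value of at least 5; and the 3 genes most like GCLC, NQO1 and HMOX1. Members and lists were chosen with earlier results of these data known. Analyses also used Python 3.11.15 with numpy 2.4.6, pandas 2.3.3 and matplotlib 3.10.9.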

Additional observations from a re-analysis of the deposited data

Results flagged for a closer look

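In 3 members every hypoxic library moved one way from every normoxic library in FADU and the opposite way in BFTC909. SLC7A11 had a log2 fold change of -0.52 in FADU and 0.91 in BFTC909. NQO1 had 0.24 and -0.24, and NFE2L2 had 0.28 and -0.19, in the same order. Each line was fitted on its own, and the difference between the lines was not tested. NFE2L2 and NQO1 moved by less than 1.3-fold in both lines. No group had the 4 libraries that a check for outlying libraries needs.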

How the results depend on the processing

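With 2 libraries per group, calls near the threshold moved with the setting, and the cause was not tested. In FADU hypoxia 1 member fell. The count was 0 with median-centred libraries, 3 with the 2 groups alone or with unadjusted p, 4 without the libraries with markers of other cell types, and 0 to 3 with a library left out. With METTL4-si in FADU 4 fell and 1 rose. The counts were 2 lower without the marker libraries, and 2 to 4 lower and 1 to 2 higher with a library left out. With METTL4-si in BFTC909 2 rose. The count was 1 with a pseudocount of 5, with the 2 groups alone, with median-centred libraries and without the marker library, and 1 to 3 with a library left out. There 1 fell, and the count was 2 at any fold, 2 without the marker library and 1 to 2 with a library left out. With RP11-390F4.3 3 fell and 0 rose. The counts were 4 lower and 1 higher at any fold, and 1 to 3 lower with a library left out. Hypoxic BFTC909 cells had 4 to 7 lower members and 1 higher under the alternatives run, and METTL4 overexpression 3 to 4 lower and 0 higher. The median ratio of the mutant clones was -0.21 with a pseudocount of 5, -0.26 with median-centred libraries, and -0.29 and -0.28 with 1 clone alone.

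Some uncalled log2 fold changes near 0 changed sign. With a library left out, OSGIN1 in FADU hypoxia ranged from -0.080 to 0.015. With METTL4-si in FADU, KEAP1 ranged from -0.30 to 0.18, GCLC from -0.088 to 0.14 and OSGIN1 from -0.24 to 0.56. With METTL4-si in BFTC909, NFE2L2 ranged from -0.011 to 0.11, GCLM from -0.27 to 0.18 and SLC7A11 from -0.045 to 0.36. With median-centred libraries OSGIN1 was 0.016 in FADU hypoxia, GCLC -0.021 with METTL4-si in FADU and NFE2L2 -0.050 with METTL4-si in BFTC909. Without the marker libraries OSGIN1 was 0.015 in FADU hypoxia and -0.24 with METTL4-si in FADU, and GCLM was 0.18 with METTL4-si in BFTC909.

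The labels do not say that equal replicate numbers pair the libraries. The correlation of replicate differences was 0.65 between FADU normoxia and FADU METTL4-si, and ran from -0.07 to 0.15 for the other pairs of groups. Replicate 1 of both FADU normoxia and FADU METTL4-si holds the breast markers, and their part in that correlation was not tested. The fit with a replicate block gave as many called members as the fit without it in each comparison (FADU hypoxia 1 lower, FADU METTL4-si 4 lower and 1 higher, BFTC909 hypoxia 5 lower and 1 higher, BFTC909 METTL4-si 1 lower and 2 higher, RP11-390F4.3 3 lower).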
